A study of Mus musculus with 8 samples.

Results

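The mitochondrial genome of the mouse is a small circular chromosome with its own genes for 13 mRNAs, 2 ribosomal RNAs and 22 transfer RNAs. Its members here were chosen by name alone, as every gene whose symbol begins with mt-, and they came to 37 genes of the 55414 in the deposited count table. They were counted in 8 libraries of cells from the colon of mice aged 4 weeks, which the labels call enteric neurons, that is, neurons of the gut's own nervous system. Of these, 4 libraries carried the genotype WT and 4 the genotype Emb knockdown, written here as Emb-kd. Emb codes for embigin, a membrane glycoprotein that partners monocarboxylate transporters. In both groups, cells were picked by fluorescence sorting on the surface proteins CD24 and CD56, some 250 to a tube, and a Smart-seq kit turned the lysates into libraries. No source used here says how the knockdown was made or in which cells. The protocol speaks of 4 mice of each genotype without tying a tube to an animal, so each p-value below reflects variation between these tubes, which may be technical.

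Both strands of the mitochondrial genome are copied as long transcripts by a dedicated RNA polymerase, POLRMT, and are then cut into separate RNAs. In most places a tRNA lies between neighbouring mRNAs or rRNAs, and the cutting out of the tRNAs releases them. The mRNAs code for core subunits of respiratory complexes I, III and IV and of ATP synthase, the rRNAs form the mitochondrial ribosome, and every other protein these processes need comes from nuclear genes. Neurons depend strongly on this respiratory chain.

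The libraries differed between the groups in ways that touch every value below. Total counts per library were 698930 to 954191 for WT against 2024372 to 2712754 for Emb-kd. The nuclear 18S ribosomal gene Rn18s-rs5 took 3.55 to 13% of counts in WT and 29.2 to 42.5% in Emb-kd, with no overlap. The targeted gene Emb had counts of 4, 6, 22 and 16 across the WT libraries and of 5, 25, 3 and 5 across the Emb-kd libraries, listed here and below from replicate 1 to replicate 4. Its log2 fold change, Emb-kd over WT, was -1.24 ± 0.82 (SE), with an adjusted p of 0.530 (edgeR), and the groups overlapped, so this table alone does not separate the labels by the targeted gene. Levels are given below as CPM, the count scaled to a common library size with the TMM factors of edgeR. Of 13 neuron markers, 8 were counted in all libraries, and their summed level was 308 ± 76.6 CPM in WT and 309 ± 116 in Emb-kd (SD, n = 4 each). Markers of macrophages, at 4980 ± 2231 and 5045 ± 1167 CPM, were above those of neurons. Their sums were close, but of the 11 macrophage markers tested 10 were higher and 1 lower in Emb-kd. The median log2 fold change of these markers was 1.41, beside 0.04 for all genes tested. Endothelial markers were 1116 ± 600 and 469 ± 517 CPM, and 6 of 7 glial markers together 168 ± 96.9 and 494 ± 495 CPM, each overlapping. Summed fibroblast markers were 126 ± 59.4 in WT and 296 ± 99.5 in Emb-kd, without overlap. The part of these cells and of the depth and ribosomal differences in the results below was not tested. In bulk samples, fewer cells of a type and less RNA per cell cannot be told apart.

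The tRNA genes ranged from counted in all 8 libraries to counted in none, and 8 of the 22 are printed because they stand at the ends of that range. Sequences are the gene strand, 5′ to 3′, from the GENCODE M21 transcripts on GRCm38 (the same assembly as mm10), with the anticodon in capitals. The first 4 were counted in all 8 libraries:
mt-Tq: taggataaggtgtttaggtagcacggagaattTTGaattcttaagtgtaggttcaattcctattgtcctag
mt-Tm: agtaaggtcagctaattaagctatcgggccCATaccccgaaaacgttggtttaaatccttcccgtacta
mt-Tc: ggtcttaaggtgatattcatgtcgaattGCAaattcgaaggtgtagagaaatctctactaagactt
mt-Tp: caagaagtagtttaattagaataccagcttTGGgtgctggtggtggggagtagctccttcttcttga
The other 4 had 0 counts in all 8 libraries:
mt-Tw: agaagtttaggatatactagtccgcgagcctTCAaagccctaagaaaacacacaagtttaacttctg
mt-Td: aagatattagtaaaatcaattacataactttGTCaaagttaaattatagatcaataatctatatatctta
mt-Tk: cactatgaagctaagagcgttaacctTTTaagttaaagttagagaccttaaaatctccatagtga
mt-Tg: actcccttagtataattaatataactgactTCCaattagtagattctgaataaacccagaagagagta

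These genes carry glutamine (mt-Tq, chrM:3772-3842, minus strand), methionine (mt-Tm, chrM:3845-3913, plus), cysteine (mt-Tc, chrM:5192-5257, minus) and proline (mt-Tp, chrM:15356-15422, minus). The uncounted genes carry tryptophan (mt-Tw, chrM:4950-5016), aspartate (mt-Td, chrM:6942-7011), lysine (mt-Tk, chrM:7700-7764) and glycine (mt-Tg, chrM:9391-9458), and lie on the plus strand.

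The summed mitochondrial count was 14959, 7181, 23052 and 12164 in WT and 128404, 76134, 43244 and 30971 in Emb-kd. As a share of all counts this was 2.04, 0.848, 2.42 and 1.74% in WT and 4.81, 2.81, 2.14 and 1.41% in Emb-kd. The raw sums did not overlap, but the shares did, since the Emb-kd libraries were also deeper.

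Most of that total was ribosomal RNA in both groups. The 2 rRNAs held 85.6 ± 5.00% of mitochondrial counts in WT and 92.6 ± 1.61% in Emb-kd (SD, n = 4 each), and the ranges of 80.9 to 92.7% and 91.2 to 94.8% overlapped. The 13 mRNAs held 13.4, 10.3, 5.56 and 17.2% in WT and 3.60, 3.02, 5.71 and 5.38% in Emb-kd. Only WT replicate 3 lay within the Emb-kd range. The 22 tRNAs held 2.72 ± 1.88% and 2.98 ± 1.04%, also overlapping.

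Set against all counts, the group means of the classes differed in their direction. The mRNAs took 0.199 ± 0.104% of counts in WT and 0.114 ± 0.0443% in Emb-kd. By library these were 0.274, 0.0876, 0.134 and 0.300% in WT and 0.173, 0.0847, 0.122 and 0.0761% in Emb-kd. In WT replicates 1 and 4, the highest, a single gene held 73.4 and 69.6% of the mRNA counts. The mRNA share without these genes was not compared. The rRNAs took 1.52 ± 0.639% and 2.60 ± 1.41%, and the tRNAs 0.0392 ± 0.00670% and 0.0759 ± 0.0307%. Each pair of ranges overlapped (n = 4 each). When the nuclear ribosomal counts were left out of the denominator, the mRNA shares came to 0.218 ± 0.116% and 0.179 ± 0.0657%, still overlapping. The tRNA shares became 0.0430 ± 0.00778% and 0.122 ± 0.0582%, and their ranges, 0.0352 to 0.0522% and 0.0699 to 0.203%, no longer overlapped. A single gene, mt-Tq, held 2.41 to 66.3% of the tRNA counts in WT and 47.5 to 78.2% in Emb-kd. Whether the other tRNAs separate the groups without mt-Tq was not tested.

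The ratio of rRNA to mRNA counts compares the classes without reference to nuclear genes. It was 6.32, 8.14, 16.7 and 4.69 in WT and 26.3, 30.7, 16 and 17 in Emb-kd. Emb-kd replicate 3 fell below WT replicate 3, and the other 3 libraries of each group were apart. The ratio of tRNA to mRNA counts was 0.124, 0.535, 0.317 and 0.111 in WT and 0.449, 1.38, 0.539 and 0.570 in Emb-kd, where WT replicate 2 overlapped the Emb-kd range. Both ratios were lowest in WT replicates 1 and 4, where a single gene held most mRNA counts. Per kilobase of gene, the rRNAs stood 21.1 to 74.9 times above the mRNAs in WT and 71.8 to 138 times in Emb-kd.

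**Figure D1:**
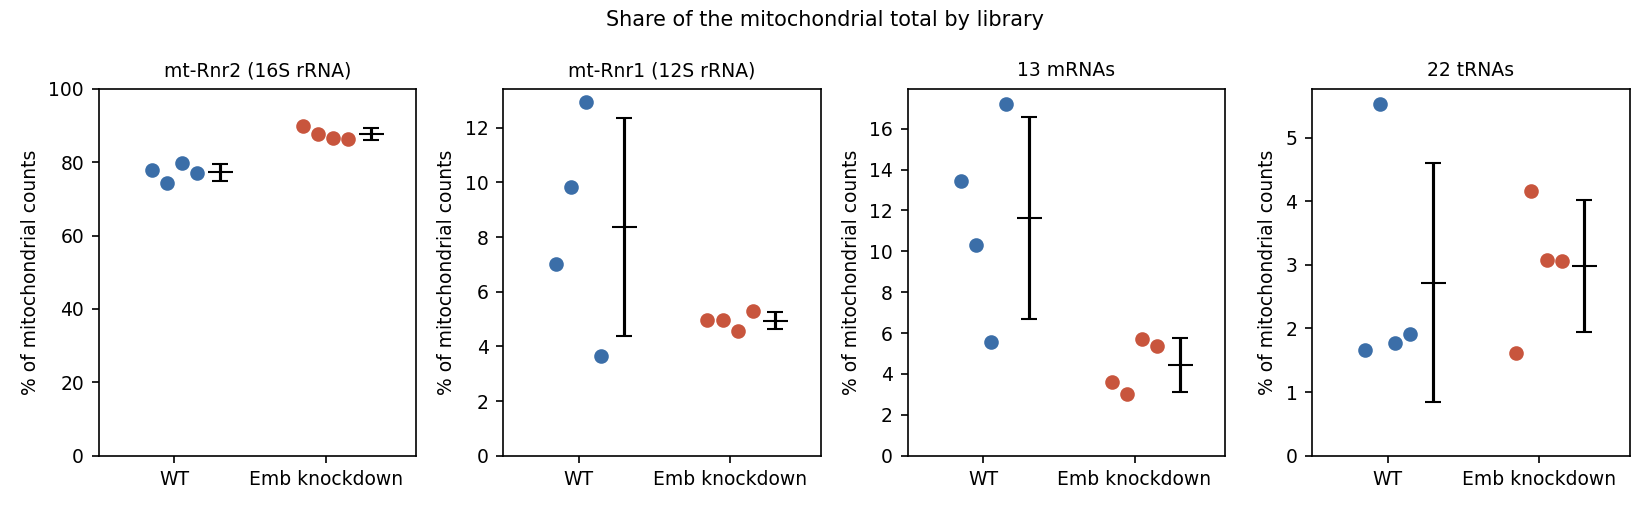
Percent of each library's mitochondrial counts held by mt-Rnr2, mt-Rnr1, the 13 mRNAs and the 22 tRNAs, with each y axis starting at 0 on its own scale. Points are libraries and black bars are the group mean ± SD (n = 4); the mt-Rnr2 points of Emb-kd lie at 86.3 to 89.8%, above the 74.3 to 79.7% of WT, while the groups overlap in the other panels.

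The large-subunit rRNA mt-Rnr2 (chrM:1094-2675) was the most abundant mitochondrial RNA in all 8 libraries. Its counts were 11648, 5335, 18377 and 9393 in WT and 115316, 66881, 37479 and 26718 in Emb-kd. After TMM scaling these were 13346, 5468, 12465 and 11720 CPM in WT and 68499, 31615, 18058 and 14922 in Emb-kd, and every Emb-kd library was above every WT library. As a share of all counts the groups overlapped, at 1.59, 0.630, 1.93 and 1.34% in WT and 4.32, 2.47, 1.85 and 1.22% in Emb-kd. The log2 fold change was 1.63 ± 0.57 (SE), with a 95% interval of 0.37 to 2.89. It was 0.85 when libraries were scaled by their totals alone and 1.01 without Emb-kd replicate 1. It did not pass the test across all genes, with an unadjusted p of 0.0156 and an adjusted p of 0.312 (edgeR). DESeq2 called the same gene, at a log2 fold change of 1.65 and an adjusted p of 0.0236, in a fit in which it called 6.02% of all genes.

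Within the mitochondrial total, mt-Rnr2 held 77.9, 74.3, 79.7 and 77.2% in WT and 89.8, 87.8, 86.7 and 86.3% in Emb-kd. The group means were 77.3 ± 2.25% and 87.6 ± 1.59% (SD, n = 4 each), and no libraries overlapped. The exact two-sided permutation test of this share gave p = 0.02857, the smallest that 70 assignments allow, with no adjustment for the 37 shares examined. Without the most abundant mRNA of each library the shares were 83.0 ± 5.03% and 89.2 ± 1.5%, and their ranges, 76.8 to 87.7% and 87.8 to 91.3%, came close but did not meet. The edgeR fit scaled to the mitochondrial total did not call the difference, at a log2 fold change of 0.18 ± 0.64 and an adjusted p of 0.875. Since mt-Rnr2 itself makes up most of that total, a rise there can only be small, so a fit scaled to it cannot decide. That fit called 0.0176% of all genes and no mitochondrial gene. In it mt-Nd4 and mt-Cytb were lower at an unadjusted p under 0.05, beside 17.6% of all genes lower at that level. Its median log2 fold change was -1.08 over all genes and -0.64 over the 14 mitochondrial genes. DESeq2 with the same scaling called 5.21% of all genes and no mitochondrial gene. Among the 14 mitochondrial genes tested, mt-Rnr2 was the only member whose share of the total did not overlap between the groups. Over all genes tested, counts divided by the mitochondrial total were higher in Emb-kd without overlap for 0.599% and lower for 11.4%. For nuclear genes that quantity is a ratio to the mitochondrial total and not a share of it. These percentages are therefore not a like comparison for mt-Rnr2.

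The small-subunit rRNA mt-Rnr1 (chrM:70-1024) varied more between WT libraries. Its counts were 1052, 707, 2986 and 443 in WT and 6384, 3787, 1966 and 1636 in Emb-kd. Its share of the mitochondrial total was 8.37 ± 3.97% and 4.94 ± 0.302%, with the Emb-kd values inside the WT range (exact permutation p = 0.1429, n = 4 each). For this gene the log2 fold change was 0.72 ± 0.71, with an adjusted p of 0.689 (edgeR), and it was -0.13 when libraries were scaled by their totals alone and 0.10 without Emb-kd replicate 1. The 2 rRNAs lie side by side, with mt-Tv between them, and are cut from the same precursor. The count ratio of mt-Rnr2 to mt-Rnr1 ran from 6.15 to 21.2 in WT. In Emb-kd it stayed between 16.3 and 19.1.

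Over the whole table, edgeR called 0% of 11353 genes at an adjusted p under 0.05, so no mitochondrial gene was called either. At an unadjusted p under 0.05 it listed 13.3% of all genes, 8.67% higher and 4.63% lower in Emb-kd. Of the 37 mitochondrial genes, 14 had enough counts to be tested (8 mRNAs, 2 rRNAs and 4 tRNAs), and mt-Rnr2 and mt-Tq were the 2 with an unadjusted p under 0.05. The same 2 genes had higher TMM-scaled levels in Emb-kd without overlap, against 4.04% of all genes tested, and none was lower without overlap, against 4.24%. The median log2 fold change of the 14 was 0.74, beside 0.04 for all genes, and 10 were above 0. With libraries scaled by their totals alone, the median was 0.05 beside -0.59, and 7 of 14 were above 0. The 23 genes not tested were 5 mRNAs and 18 tRNAs.

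**Figure D2:**
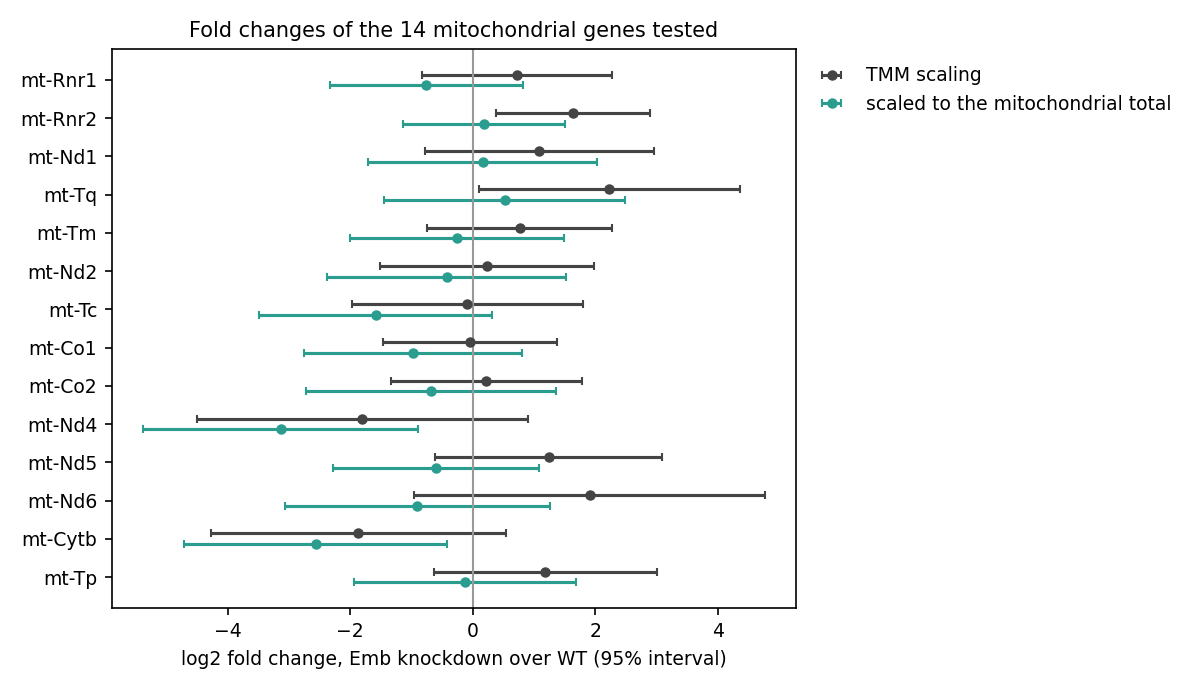
Log2 fold changes, Emb-kd over WT, with 95% intervals for the 14 mitochondrial genes tested, in genome order, from the TMM fit and from the fit scaled to the mitochondrial total. Under TMM the intervals of mt-Rnr2 and mt-Tq lie above 0, and scaled to the mitochondrial total those of mt-Nd4 and mt-Cytb lie below 0, though none passed the test across all genes. At an unadjusted p under 0.05 (edgeR), 8.67% of all genes were higher under TMM and 17.6% lower under the other scaling.

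The make-up of the mRNAs varied widely among libraries of the same group. In each library 1 mRNA took between 28.6 and 73.4% of all mitochondrial mRNA counts, and which gene it was changed from library to library. It was mt-Cytb at 73.4%, mt-Nd6 at 31.0%, mt-Nd1 at 33.9% and mt-Nd4 at 69.6% in WT replicates 1 to 4. In Emb-kd it was mt-Nd6 at 45.4%, mt-Nd1 at 28.6%, mt-Nd1 at 45% and mt-Nd2 at 32.7%.

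**Figure D3:**
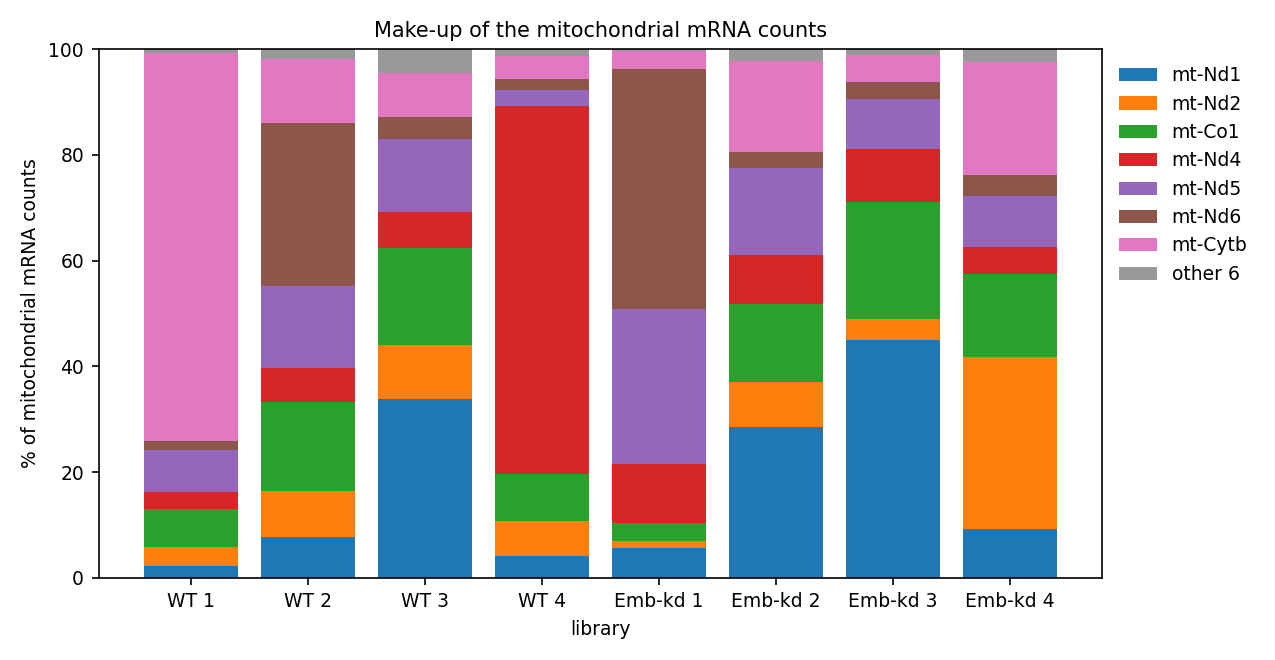
Percent of mitochondrial mRNA counts held by each of 7 mRNAs and by the other 6 together, in each of the 8 libraries. A single gene fills 73.4% of the bar in WT 1 (mt-Cytb) and 69.6% in WT 4 (mt-Nd4), and the leading gene differs among the libraries of each group.

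Complex I, which takes electrons from NADH, has 7 of its subunits coded here. For mt-Nd4 the counts were 66, 48, 87 and 1458 in WT and 510, 215, 250 and 85 in Emb-kd. WT replicate 4 alone stood high. Scaled for depth, the other WT libraries, at 49.2 to 75.6 CPM, lay within the Emb-kd range of 47.5 to 303. Its log2 fold change of -1.81 ± 1.23 had an adjusted p of 0.545 (edgeR), and it turned to 1.31 without WT replicate 4. Scaled to the mitochondrial total, the change was -3.14 ± 1.09, with an unadjusted p of 0.00823 and an adjusted p of 0.202, and it was -0.37 without WT replicate 4.

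The gene mt-Nd6, the only mRNA on the minus strand (chrM:13552-14070), had 32, 230, 53 and 43 counts in WT and 2101, 70, 81 and 65 in Emb-kd. Its values were high in Emb-kd replicate 1 and, less so, in WT replicate 2. Its log2 fold change was 1.90 ± 1.31 (adjusted p = 0.546, edgeR), and it was -1.34 without Emb-kd replicate 1. The neighbour mt-Nd5, which shares 14 bases with mt-Nd6 on the other strand, had 162, 114, 177 and 65 counts in WT and 1359, 379, 232 and 162 in Emb-kd. It too was highest in Emb-kd replicate 1. Its log2 fold change was 1.24 ± 0.84 (adjusted p = 0.545, edgeR), and 0.022 without that library. No source used here says whether the counting used strand, so reads from the shared bases cannot be told apart.

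Among the other complex I genes, mt-Nd1 had 44, 58, 434 and 86 counts in WT and 261, 657, 1110 and 153 in Emb-kd, a log2 fold change of 1.08 ± 0.85 (adjusted p = 0.603, edgeR). It was 1.96 without WT replicate 3 and 0.50 without Emb-kd replicate 3. For mt-Nd2 the counts were 72, 64, 131 and 138 in WT and 63, 193, 97 and 545 in Emb-kd. Emb-kd replicate 4 held the high value, and the log2 fold change of 0.23 ± 0.80 turned to -0.78 without it. The short genes mt-Nd3 and mt-Nd4l had 0 to 5 and 0 to 2 counts and were not tested. Complex I genes together made up 18.7 to 85.5% of mitochondrial mRNA counts in WT and 60.7 to 92.9% in Emb-kd.

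Cytochrome b, coded by mt-Cytb, is the subunit of complex III made in the mitochondrion. It had 1476, 90, 108 and 91 counts in WT and 156, 396, 125 and 358 in Emb-kd. WT replicate 1 stood alone, at 1691 CPM, and the other 3 WT libraries, at 73.3 to 114 CPM, lay within the Emb-kd range of 60.2 to 200 CPM. The log2 fold change of -1.87 ± 1.10 (adjusted p = 0.481, edgeR) turned to 0.60 without WT replicate 1. Scaled to the mitochondrial total it was -2.57 ± 1.04, with an unadjusted p of 0.0211 and an adjusted p of 0.218, and it was -0.66 without WT replicate 1.

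Complex IV, cytochrome c oxidase, passes electrons to oxygen. Its catalytic subunit gene mt-Co1 was the evenest of the abundant mRNAs, with 144, 125, 235 and 187 counts in WT and 159, 339, 547 and 259 in Emb-kd. Its level was 171 ± 44.3 CPM in WT and 166 ± 71.0 in Emb-kd (SD, n = 4 each). The log2 fold change was -0.05 ± 0.65, with a 95% interval of -1.47 to 1.37. For mt-Co2 the counts were 6, 2, 16 and 6 in WT and 9, 26, 8 and 19 in Emb-kd, a log2 fold change of 0.22 ± 0.71, and -0.49 when libraries were scaled by their totals alone. The third gene, mt-Co3, had 1 to 12 counts in WT and 4 to 13 in Emb-kd.

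The ATP synthase genes mt-Atp8 and mt-Atp6 share 43 bases and were among the lowest mRNAs. The former had 0 to 5 counts in a library, and the latter 7, 3, 21 and 10 in WT and 2, 6, 1 and 12 in Emb-kd. As a share of the mitochondrial total, mt-Atp6 was the only mRNA that did not overlap, lower in Emb-kd. By their ratio to that total, 11.4% of all genes tested were lower without overlap. Most counts of the mt-Atp6 sequence stood in a nuclear copy described below. It had too few counts to be tested, and its TMM-scaled levels overlapped.

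These low genes are neighbours. The 6 mRNAs from mt-Co2 to mt-Nd4l together held 14, 13, 57 and 28 counts in WT and 19, 50, 27 and 40 in Emb-kd, or 0.411 to 4.45% of mitochondrial mRNA counts. Per kilobase they were compared with 1505 odorant, vomeronasal and trace amine receptor genes, sensory receptors taken here as a low reference level. These had 1.07 to 2.28 counts per kilobase. The gene mt-Co2 stood at 2.29 to 21 times the receptor level of its library and mt-Co3 at 0.96 to 7.76 times, whereas mt-Co1, on the upstream side, was at 63.3 to 155 times.

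**Figure D4:**
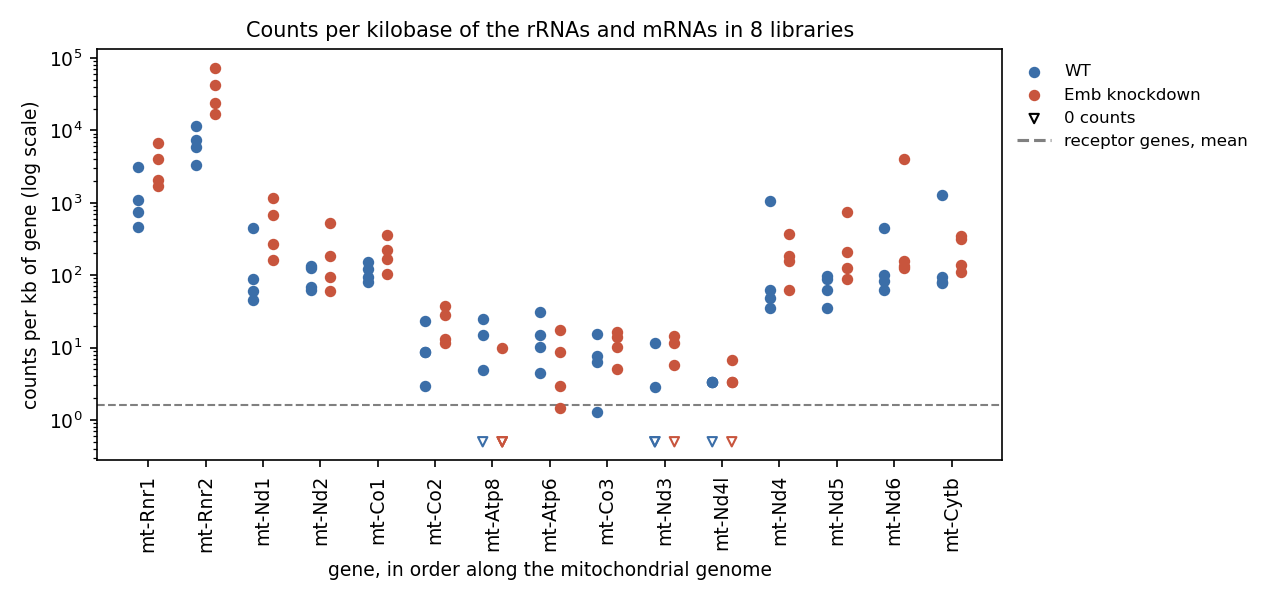
Counts per kilobase of gene on a log axis for the 2 rRNAs and 13 mRNAs in genome order, 1 point per library and open triangles for 0 counts, with the mean of the receptor genes as a dashed line. The levels fall between mt-Co1 and mt-Co2, stay low through mt-Nd4l and are higher again from mt-Nd4 onward, in both groups; Emb-kd libraries were deeper, so heights are not comparable between groups.

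Much of the sequence of this low stretch also exists in the nuclear genome. Among annotated transcripts, 11 nuclear genes matched a mitochondrial mRNA at 95% identity or more over at least 200 bases, and 9 of the 13 mRNAs had such a near copy. Of the 11, 7 lie in a run on chromosome 1 from position 24611535 to 24616197. There Gm28661 matched mt-Co2, Gm28437 mt-Co3, Gm10925 mt-Atp6, Gm28439 mt-Nd4 and Gm10222 mt-Nd4l at 100% identity, Gm28438 matched mt-Nd3 at 99.7%, and Gm29216 the last 483 bases of mt-Co1 at 99.8%. The remaining 4 were Gm13341, Gm13340 and Gm13339 on chromosome 2, which matched mt-Co2, mt-Co1 and mt-Nd2 at 95.9, 97.6 and 96.7%, and Gm4076 on chromosome 13, which matched mt-Nd5 at 95.2%. The single difference between mt-Co1 and Gm29216 over that match is the substitution A1066T, counted from 1 at the start of mt-Co1. It is shown in capitals because no other base in that match tells the genes apart:
mt-Co1, chrM:6390-6413, plus strand: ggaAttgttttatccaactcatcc
Gm29216, chr1:24616165-24616188, minus strand: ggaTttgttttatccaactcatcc

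For mt-Co2, mt-Co3, mt-Atp6 and mt-Nd4l most counts stood in the nuclear copies. Of the counts assigned to mt-Co2 or its copies, 88.1% were in the copies, against 86.8% for mt-Co3, 77.9% for mt-Atp6 and 31.0% for mt-Co1. At few counts, the share was 66.7% for mt-Nd4l and 42.9% for mt-Nd3. For mt-Nd4, mt-Nd2 and mt-Nd5 it was 3.55, 2.62 and 2.47%. Their copies cover part of the gene, which for mt-Nd4 was 876 of 1378 bases. Where the sequences are identical, a read from the mitochondrial gene and a read from the copy cannot be told apart, so the counts of both are uncertain.

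At Gm28661 the TMM-scaled levels were 9.17, 6.15, 14.9 and 15 CPM in WT and 41.6, 103, 34.7 and 101 in Emb-kd. Every Emb-kd library was above every WT library, and the log2 fold change was 2.62 ± 0.66, with an unadjusted p of 0.00193 and an adjusted p of 0.291 (edgeR). At Gm29216 they were 26.4, 16.4, 12.9 and 17.5 in WT and 40.4, 151, 54.4 and 44.7 in Emb-kd, again without overlap. Its log2 fold change was 1.99 ± 0.65, with an adjusted p of 0.304. DESeq2 called both, at adjusted p of 0.00107 for Gm28661 and 0.0173 for Gm29216, beside the 6.02% of all genes it called. These were 2 of the 8 near copies tested, beside the 4.04% of all genes given above. The others tested had log2 fold changes of 1.08 (Gm28437, Gm13341), 0.30 (Gm13340), -0.12 (Gm4076), -0.40 (Gm10925) and -1.36 (Gm28439), each overlapping, and Gm13339 was not tested.

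Adding the copies to their mitochondrial gene moved mt-Co2 most among the genes tested both ways. Its level became 21.8, 12.3, 30.5 and 26.2 CPM in WT and 60.0, 130, 48.2 and 114 in Emb-kd, without overlap. The log2 fold change went from 0.22 to 1.95 ± 0.63, with an adjusted p of 0.304 (edgeR), still short of the threshold. For mt-Co3 with its copy it was 0.87 ± 0.57, for mt-Co1 0.33 ± 0.65 and for mt-Atp6 -0.68 ± 0.64. This addition was chosen after the values had been seen.

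Of the 22 tRNAs, mt-Tq was the most abundant in every library but WT replicate 1, where mt-Tc led. It had 6, 249, 270 and 105 counts in WT and 1453, 2476, 632 and 644 in Emb-kd, or 6.87, 255, 183 and 131 CPM in WT and 863, 1170, 305 and 360 in Emb-kd. WT replicate 1 was far below the other libraries, and the groups did not overlap in CPM. The log2 fold change was 2.23 ± 0.97, with a 95% interval of 0.09 to 4.36, an unadjusted p of 0.0421 and an adjusted p of 0.360 (edgeR). It was 1.49 when libraries were scaled by their totals alone. Scaled to the mitochondrial total it was 0.52 ± 0.95, with an adjusted p of 0.748. Its gene shares 3 bases with mt-Ti on the other strand.

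The other tRNAs counted in all libraries overlapped between the groups. The initiator and elongator methionine tRNA mt-Tm had 39, 27, 29 and 89 counts in WT and 158, 144, 240 and 118 in Emb-kd, a log2 fold change of 0.76 ± 0.69. The proline tRNA mt-Tp had 45, 10, 46 and 6 in WT and 212, 48, 129 and 33 in Emb-kd, a log2 fold change of 1.18 ± 0.83. The cysteine tRNA mt-Tc had 149, 103, 57 and 23 in WT and 201, 259, 20 and 127 in Emb-kd. Its log2 fold change was -0.09 ± 0.86, and 0.17 without the filter on low counts. Adjusted p-values of these 3 ran from 0.552 to 0.979 (edgeR).

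These 4 tRNAs held 96.0 to 98.8% of tRNA counts in WT and 76.8 to 97.5% in Emb-kd. Genes annotated on the minus strand, 8 of the 22, gave 58.6 to 92.1% of tRNA counts in WT and 68.1 to 90.4% in Emb-kd. Most of these counts were of mt-Tq, mt-Tc and mt-Tp. As the use of strand in the counting is not known, the shares do not show which strand the reads came from. Adenine made up 22.4 to 31.8% of the bases of the 4 tRNAs always counted and 35.8 to 45.7% of the 4 never counted, visible in the a-rich stretches of mt-Tw and mt-Td above. Across the 22 genes the Spearman rho of adenine percent and counts per base was -0.56, over genes that share libraries and, in part, strand.

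More tRNA genes were counted in Emb-kd. There were 7 to 8 per library in WT and 13 to 16 in Emb-kd. At an equal count outside nuclear ribosomal RNA, the expected number was 6.76 to 7.72 and 10.6 to 14.6, without overlap. At an equal mitochondrial count it was 5.46 to 7.00 and 6.34 to 11, and the groups overlapped. The 5 tRNAs counted in Emb-kd but in no WT library had 1 to 8 counts where they were seen. The part of depth in their absence from WT was not tested.

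A few tRNAs outside the test were low in WT and high in some Emb-kd libraries. The isoleucine tRNA mt-Ti had 0, 0, 2 and 0 counts in WT and 3, 91, 58 and 8 in Emb-kd. The alanine tRNA mt-Ta had 0, 0, 1 and 0 in WT and 4, 41, 86 and 6 in Emb-kd. The edgeR fit without a filter on low counts called both, at log2 fold changes of 5.43 and 5.95 and adjusted p of 0.00198 and 0.00216, in a fit that called 1.88% of 48530 genes. With 2 and 1 counts in all of WT, these fold changes depend on the small value that the fit adds. The threonine tRNA mt-Tt had 0, 5, 0 and 0 counts in WT and 16, 25, 40 and 2 in Emb-kd. The arginine tRNA mt-Tr had 0, 1, 1 and 6 counts in WT and 2, 4, 80 and 1 in Emb-kd. Single libraries also held most counts of the glutamate tRNA mt-Te (32 in Emb-kd replicate 3) and the valine tRNA mt-Tv (32 in Emb-kd replicate 2).

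**Figure D5:**
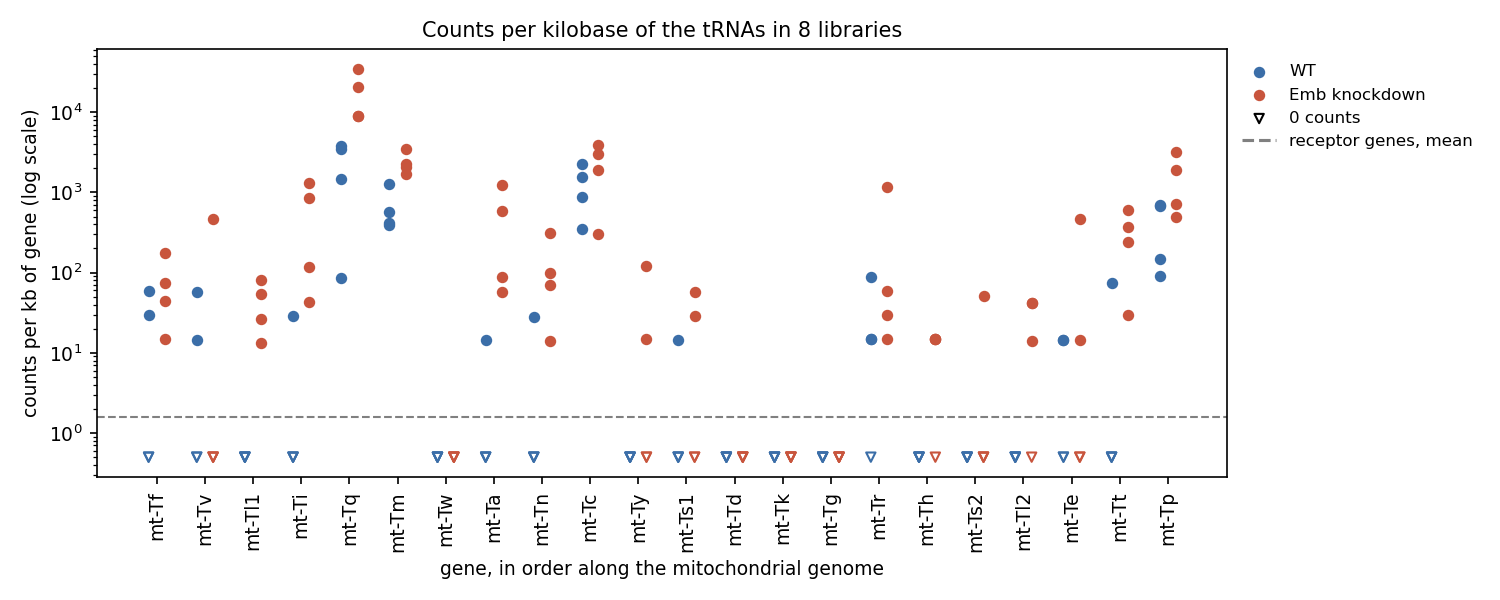
Counts per kilobase of gene on a log axis for the 22 tRNAs in genome order, 1 point per library and open triangles for 0 counts, with the receptor genes' mean as a dashed line. mt-Tq, mt-Tm, mt-Tc and mt-Tp have points for all 8 libraries, mt-Tw, mt-Td, mt-Tk and mt-Tg have none above 0, and Emb-kd libraries were deeper, so heights are not comparable between groups.

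The nuclear genes that copy, process and translate these RNAs were examined in 6 lists. Together, 85 of 182 genes were tested, with 50 above and 35 below 0, and edgeR called none at an adjusted p under 0.05. Their median log2 fold change was 0.22 beside 0.04 for all genes, or -0.47 beside -0.59 with library totals, and 8 of the 85 had an unadjusted p under 0.05 (6 higher, 2 lower), beside 13.3% of all genes. DESeq2 called 2 of the 85, Mrpl44 and Mrps10, beside 6.02% of all genes. Neither share is above that of all genes.

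For transcription, 2 of 11 genes were tested. The polymerase Polrmt had a log2 fold change of -0.33 ± 0.68 and the transcription factor Tfam -0.19 ± 1.11, with 1, 4, 7 and 24 counts in WT and 0, 19, 22 and 26 in Emb-kd for the latter. Tfam turned to 1.36 without WT replicate 4.

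In RNA processing and stability, 20 of 40 matched genes were tested, 14 above and 6 below 0. Grsf1, an RNA-binding protein of mitochondrial RNA granules, was 2.29, 7.17, 15.6 and 15 CPM in WT and 50.5, 18, 21.2 and 27.4 in Emb-kd. The groups did not overlap, and the log2 fold change was 1.53 ± 0.69 (adjusted p = 0.371, edgeR). Mtpap, the mitochondrial poly(A) polymerase, had 0, 12, 1 and 1 counts in WT and 1, 52, 60 and 46 in Emb-kd, a log2 fold change of 2.47 ± 1.21. Ybey, an endonuclease that acts on mitochondrial rRNA, had a log2 fold change of -1.61 ± 0.80.

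Of the aminoacyl-tRNA synthetases, which load tRNAs with their amino acid, 17 of 23 were tested, 10 above and 7 below 0. Mars2, which loads methionine, had 3, 1, 13 and 5 counts in WT and 129, 22, 27 and 25 in Emb-kd, without overlap, and a log2 fold change of 2.50 ± 0.89 (adjusted p = 0.312, edgeR). It was 1.31 without Emb-kd replicate 1. Ears2, for glutamate, was 2.60 ± 1.02, with 244 of its Emb-kd counts in replicate 3. Tars2, for threonine, was -1.18 ± 0.65.

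Of the mitochondrial ribosomal proteins, 28 of 78 were tested, 20 above and 8 below 0. Mrpl44 of the large subunit had 16, 4, 14 and 0 counts in WT and 170, 271, 80 and 24 in Emb-kd, a log2 fold change of 3.12 ± 1.04 (adjusted p = 0.304, edgeR). Mrps10 of the small subunit was -1.85 ± 0.67 and Mrps23 was 2.02 ± 0.85. The lists for DNA maintenance and translation factors had 10 of 17 and 8 of 14 genes tested, with medians of -0.25 and -0.23. Outside these 6 lists, 31 of 87 nuclear genes of the respiratory chain were tested, 21 above and 10 below 0, with a median of 0.89, and 6 were higher and 0 lower at an unadjusted p under 0.05, beside 8.67% and 4.63% of all genes. Genes of mitochondrial mass and import, 22 of 27 tested, had a median of 0.22. With library totals these medians were 0.23 and -0.46.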

How the data were processed

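The deposited table gives raw counts of reads per gene, summed by the authors for 55414 genes in 8 libraries. Adapters were trimmed with cutadapt and the build was mm10, per the submitters' processing notes. No source used here names the aligner, the counter, its treatment of multiply mapping reads and of strand, or the annotation. The members and gene lists were chosen with earlier results of these data known. Rows without a gene name (1399) carry gene identifiers and were kept.

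Genes were filtered with filterByExpr (minimum count 10, minimum total 15), scaled by TMM and tested with edgeR 4.0.16 (robust quasi-likelihood fit, group as the only term, R 4.3.3) over 11353 genes, with Benjamini-Hochberg adjustment and a threshold of 0.05. A further fit took the mitochondrial sum as library size. DESeq2 1.42.0, limma 3.58.1 voom, other scalings, no filter, a replicate block, and each library left out were alternatives. Class shares and ratios carry no test. Values per library are given for members with a mean of at least 10 counts and for mt-Atp6, and of each nuclear list described the 3 tested genes with the smallest unadjusted p are named. Near copies (BLAST 2.17.0) were sought among GENCODE M21 transcripts, not in a genome sequence, and named where a library held at least 10 counts; those below it are named to complete the run. Depth was 698930 to 2712754 counts per library. A result for 1 marker gene is not reported here.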

Additional observations from a re-analysis of the deposited data

Results flagged for a closer look

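Within each group of 4 libraries, the highest and the lowest value were compared with the others. A library was listed when its gap to the nearest other library over the group's range passed Dixon's 95% critical value. Chance gives this in about 1 in 20 groups if the values are independent and normally distributed. Of 124 groups examined 29 were listed. The values here come from counts, and the same gene can enter both as CPM and as percent. A group with counts in only 1 library is always listed, so 29 of 124 does not measure an excess over chance. Among the mitochondrial mRNAs, each time with 1 library far above the rest, these in CPM were mt-Nd4 in WT replicate 4 (1819), mt-Cytb in WT replicate 1 (1691), mt-Nd6 in Emb-kd replicate 1 (1248) and WT replicate 2 (236), and mt-Nd5 in Emb-kd replicate 1 (807). As percent of the mitochondrial total the same libraries stood out for mt-Nd4 (12%), mt-Cytb (9.87%), mt-Nd6 (1.64% and 3.20%) and mt-Nd5 (1.06%), and Emb-kd replicate 4 did for mt-Nd2 (1.76%).

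Among tRNAs, mt-Tr was high in Emb-kd replicate 3 (38.5 CPM, 0.185% of the mitochondrial total) and WT replicate 4 (7.49 CPM). In WT, mt-Ti (1.36 CPM, 0.00868%), mt-Ta (0.678, 0.00434%) and mt-Tt (5.12, 0.0696%) had counts in 1 library and 0 in the other 3. The tRNA to mRNA count ratio of Emb-kd replicate 2 was 1.38, against 0.449 to 0.570 in the other Emb-kd libraries.

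Among near copies, Gm10925 was high in Emb-kd replicate 4 (39.7 CPM), Gm29216 in Emb-kd replicate 2 (151), Gm13339 in WT replicate 4 (8.73) and Gm28439 in WT replicate 2 (26.6). Among nuclear genes, Tfam was high in WT replicate 4 (29.9), Mtpap high in WT replicate 2 (12.3) and low in Emb-kd replicate 1 (0.594), and Mars2 high in Emb-kd replicate 1 (76.6).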

How the results depend on the processing

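No mitochondrial gene was called by edgeR under 3 other scalings, by voom, with the near copies added, or with any single library left out. Without a filter on low counts 2 were called (mt-Ti, mt-Ta) and with DESeq2 1 (mt-Rnr2), and over all genes these settings called 910 and 683. Of the nuclear list genes they called 3 and 2. Scaled to the mitochondrial total, 1 was called without a filter (mt-Nd4), in a fit that called 1% of 48530 genes. With the filter, the log2 fold change of mt-Nd4 at that scaling was -3.14, and -0.37 without WT replicate 4. The cause of these differences between settings was not tested. The difference between the group means of the log2 tRNA share of counts moved from 0.88 to 1.41 outside nuclear rRNA. The difference in the mt-Rnr2 share moved from 10.4 to 6.14 percentage points without the most abundant mRNA. The alternatives for the mt-Rnr2 share, the equal-depth numbers of tRNA genes and the near copies added to single genes were chosen after seeing the data.

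Fold changes of single genes changed sign as follows, none of them called under either setting; causes were not tested. With library totals alone they were -0.13 for mt-Rnr1, -0.38 for mt-Nd2, -0.49 for mt-Co2 and -0.34 for Gm13340. Without a filter they were 0.17 for mt-Tc, 0.19 for mt-Co1, 0.030 for Tfam and 0.13 for Gm4076. With voom they were -0.18 for mt-Nd2 and 0.0087 for Gm4076, and with near copies added 0.33 for mt-Co1. With a library left out the ranges that crossed 0 were -0.78 to 0.66 for mt-Nd2, -0.33 to 0.56 for mt-Tc, -0.35 to 0.20 for mt-Co1, -0.014 to 0.61 for mt-Co2, -2.44 to 1.31 for mt-Nd4, -1.34 to 3.12 for mt-Nd6, -2.19 to 0.60 for mt-Cytb, -0.64 to 0.14 for Polrmt, -0.51 to 1.36 for Tfam and -0.50 to 0.87 for Gm4076.

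Scaled to the mitochondrial mRNA sum in place of the mitochondrial total, the sign changed to 0.26 for mt-Rnr1, 1.13 for mt-Tm, 0.68 for mt-Nd2, 0.12 for mt-Co1, 0.39 for mt-Co2, 0.69 for mt-Nd5, 0.53 for mt-Nd6 and 0.90 for mt-Tp. With the rRNAs left out of the total and near copies added it changed to 0.65 for mt-Tm, 0.18 for mt-Nd2, 0.013 for mt-Co1, 1.54 for mt-Co2, 0.33 for mt-Nd5, 0.53 for mt-Nd6 and 0.54 for mt-Tp. With a library left out the ranges that crossed 0 were -0.83 to 0.78 for mt-Nd1, -0.69 to 0.30 for mt-Tm, -2.61 to 1.00 for mt-Nd6 and -0.63 to 0.28 for mt-Tp.

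The groups share replicate numbers, but same-numbered libraries correlated at 0.011 to 0.034 in their deviations from the group means, so the numbers were not taken to pair them. With the replicate block, edgeR called 0 mitochondrial genes and 0 of all genes, and 919 against 1510 genes had an unadjusted p under 0.05. The block changed the sign of mt-Nd2 (-0.19), mt-Nd4 (0.37) and Tfam (0.039), and, scaled to the mitochondrial total, of mt-Nd1 (-0.13).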
